A study of Eriocheir sinensis with 9 samples.

Results

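In eyestalks of Eriocheir sinensis, the Chinese mitten crab, 112 of 267789 numbered transcript isoforms met a rule for a drop only at 32 °C. Their mean level was similar at 22 and 27 °C and much lower at 32 °C. They were chosen by their abundance values in these same libraries. An isoform had to reach 1 FPKM in at least 3 of the 9 libraries, which 101114 did. FPKM counts the sequenced fragments of a transcript relative to its length and to all fragments mapped in that library. On the log2(FPKM + 1) scale, the mean at 27 °C had to lie within 0.5 of the mean at 22 °C, and the mean at 32 °C at least 1.5 below that at 27 °C. Every value at 32 °C also had to lie below all 6 values of the cooler temperatures, which was so in 2.17% of the isoforms that passed this filter. The upper limit of 200 isoforms set in the rule was not reached, so all 112 isoforms that met it are described.

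The crabs were wild type and between molts, and all had been kept at 25 °C before they were assigned to a temperature. The protocol lists 6 temperatures with 3 parallel replicates of 16 crabs at each. The libraries analysed here came from 22, 27 and 32 °C, 3 per temperature, with the temperature read from the library titles because the treatment field calls all of them untreated. The labels do not say how long a temperature was held or how many crabs entered a library, and p-values therefore reflect only the spread among libraries, part of which may be technical. The design text of the series speaks of muscle, of ATAC-seq beside RNA-seq and of Illumina instruments, while the sample labels say eyestalk, total RNA and DNBSEQ. The labels were followed, and with unnamed isoforms the tissue could not be checked against marker genes.

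In crabs the eyestalk bears an eye with its optic ganglia, together with a neuroendocrine centre formed by the X-organ and its sinus gland. Peptide hormones released there act on molting, blood sugar, reproduction and pigment movement. Crabs do not regulate their body temperature, so the water sets the temperature at which these tissues work. An isoform is a single transcript form, and several can come from the same gene. None of the 112 identifiers matched the gene table used here (0 of 112), so no function, gene or sequence can be given for them, and 2 are named by identifier. In RNA from a whole tissue, fewer cells of a type and less RNA per cell cannot be told apart.

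Summed FPKM ran from 1704917 to 2227273 per library, and between 164115 and 174929 isoforms were above 0. Read totals are unknown. Replicate 1 at 32 °C stood somewhat apart from its group. Across the isoforms that passed the filter (not independent of each other), its log2 values had a correlation of 0.731 and 0.738 to the remaining 32 °C libraries but 0.754 to 0.761 to those from 27 °C. Among the 112 isoforms the medians were close, at 0.98 FPKM in replicate 1, 0.975 in replicate 2 and 1.12 in replicate 3 at 32 °C. Replicate 1 was the highest of the 3 in 42 of the 101 isoforms with a single highest value (41.6%, against 30.4% of all isoforms that passed the filter). It was the lowest in 22 of the 85 with a single lowest value (25.9%, against 40.4%). The choice bears on these shares, and they were not tested.

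The 112 isoforms were of moderate abundance and stood far lower at 32 °C. Their median per library was 8.74, 8.785 and 8.73 FPKM in the 22 °C libraries, 8.965, 8.105 and 8.675 in the 27 °C libraries and 0.98, 0.975 and 1.12 in the 32 °C libraries. The cooler libraries therefore lay close together, and all 3 libraries at 32 °C lay far below them. In the median isoform the 32 °C mean was 16.8% of the mean over the 22 and 27 °C libraries, with a range from 0 to 39.9%. Their joint part of summed FPKM was 0.211% ± 0.0525 at 22 °C, then 0.194% ± 0.0252 at 27 °C, and only 0.0314% ± 0.00204 in the 32 °C libraries (SD, n = 3 each). These values were used in the choice and describe the set only.

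**Figure D1:**
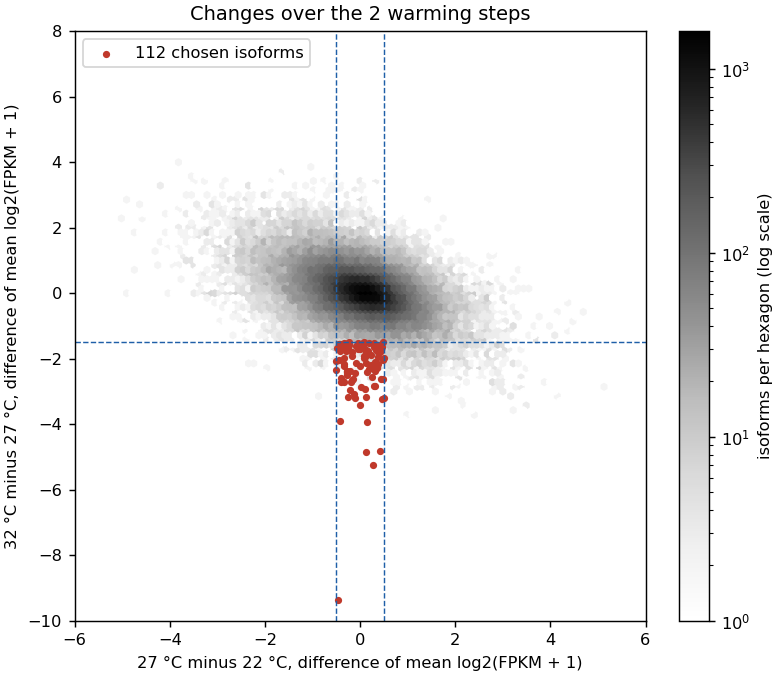
Difference of mean log2(FPKM + 1) between 27 and 22 °C (horizontal) and between 32 and 27 °C (vertical) for the 101114 isoforms that passed the filter, grey by density, with the 112 chosen isoforms in red and the thresholds as dashed lines. The red points form a narrow band below -1.5 with a single isoform at -9.36, well under the others, and unmarked isoforms inside the same band overlapped between temperatures.

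The size of the drop varied widely. The median difference between 32 and 27 °C was -1.96 on the log2(FPKM + 1) scale, against 0.01 over all isoforms that passed the filter. In 59 of the 112 it lay between -1.5 and -2, in 53 it was -2 or lower, in 13 it was -3 or lower and in 4 it was -4 or lower. Between 27 and 22 °C the differences of the 112 had a median of 0.05, with 62 above 0 and 50 below. Measured against 22 °C, the difference at 32 °C had a median of -1.97 and ran from -9.83 to -1.02.

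By abundance, the set lay above the table at large. The set held no isoform (0 of 112) that averaged under 2 FPKM over the cooler libraries, a band with 42.1% of all isoforms that passed the filter. At such levels a drop of 1.5 on this scale is hard to reach, since 1 FPKM is added before the logarithm. There were 28 isoforms at 2 to 5 FPKM, 33 at 5 to 10, 38 at 10 to 50 and 13 at 50 FPKM or more. The last band took 11.6% of the set and 2.62% of all isoforms that passed the filter. The median difference between 32 and 27 °C was -1.62, -2.03, -2.16 and -2.71 in these 4 bands, in order of rising abundance. The rule held every band to -1.5 or lower, and the added 1 limits the possible drop more at low abundance. The part this plays in the order of the medians was not tested.

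**Figure D2:**
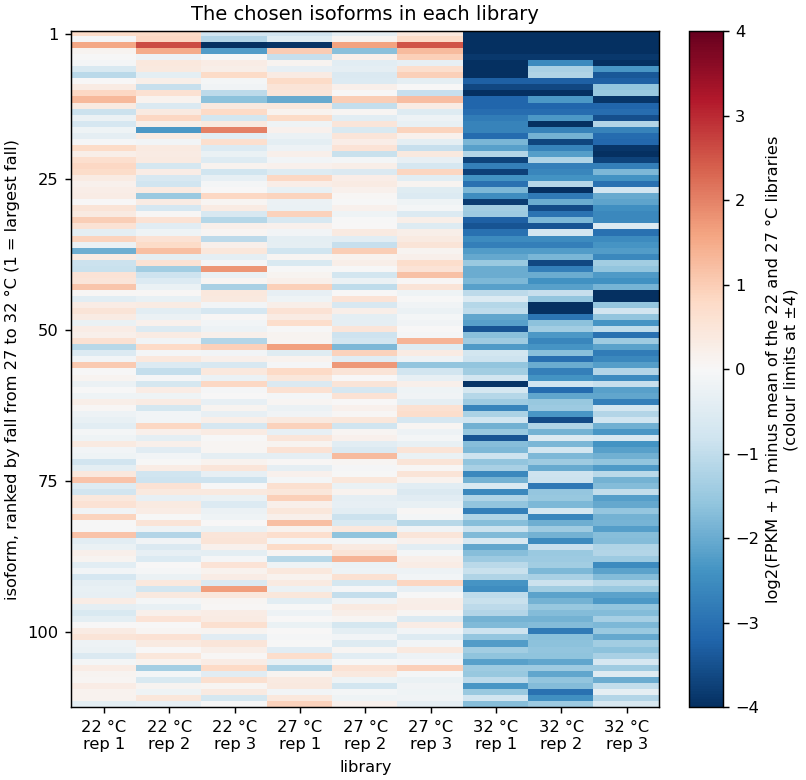
Each row is a chosen isoform, ranked by its difference between 32 and 27 °C, and each column a library; colour gives log2(FPKM + 1) minus the isoform's mean over the 22 and 27 °C libraries. All 3 columns at 32 °C are below 0 (blue) throughout, by the rule, while the 6 cooler columns are mostly pale, with a few rows that swing strongly among them.

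Isoform_3151 had both the lowest difference and the highest abundance of the set. It stood at 1843.18, 1869.7 and 644.43 FPKM in the 22 °C libraries, 647.06, 871.71 and 1472.83 in the 27 °C libraries and 0.96, 0 and 0.51 in the 32 °C libraries. The lowest cooler library was 671-fold above the highest at 32 °C, by far the widest gap among the 101 isoforms that were above 0 in any 32 °C library. The difference between 32 and 27 °C was -9.36 with a standard error of 0.498 on the log2(FPKM + 1) scale in limma. This isoform alone made up much of the set's summed abundance at 22 and 27 °C: with it the sum was 4532 ± 1314 FPKM in the 22 °C libraries, 3806 ± 553 in the 27 °C libraries and 585.9 ± 81.0 in the 32 °C libraries (SD, n = 3 each). Without it these sums were 3079 ± 615, 2809 ± 189 and 585.4 ± 80.6 FPKM (SD, n = 3 each).

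Isoform_32051, the next in abundance, stood much closer to its cooler level and was never near 0. Its values were 988.22, 855.48 and 453.32 FPKM in the 22 °C libraries, 767.58, 530.24 and 544.62 in the 27 °C libraries and 219.03, 188.95 and 158.44 in the 32 °C libraries. The 32 °C libraries did not overlap with the cooler ones, and the lowest cooler library was 2.07-fold above the highest at 32 °C. It ranked 79 by the size of the drop. The difference from 27 °C was -1.69 with a standard error of 0.311, and that from 22 °C was -1.95. In limma the Benjamini-Hochberg adjusted p was 0.163 against 27 °C and 0.0277 against 22 °C. The latter became 0.109 and 0.121 when replicate 1 or 2 at 22 °C was left out. Both contrasts entered the choice, so nothing is read from these p-values.

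Isoforms next in rank by the size of the drop showed how differently the same rule could be met. The second had 97.95, 180.61 and 44.15 FPKM in the 22 °C libraries, 72.45, 109.26 and 174.13 in the 27 °C libraries and 2.96, 1.9 and 1.33 in the 32 °C libraries. Its 32 °C libraries lay close together, at least 14.9-fold below the lowest of the cooler ones. The third had 172.96, 361.07 and 1.84 FPKM in the 22 °C libraries, 2.92, 178.06 and 333.28 in the 27 °C libraries and 0.43, 1.77 and 1.51 in the 32 °C libraries. Here replicate 3 at 22 °C and replicate 1 at 27 °C were almost as low as the 32 °C libraries, and the cooler libraries differed among themselves by up to 196-fold. The fifth was steadier, with 13.37, 11.75 and 13.44 FPKM in the 22 °C libraries and 6.62, 15.7 and 27.32 in the 27 °C libraries, and was listed at 0 in every 32 °C library. The seventh had 62.64, 128.28 and 115.09 FPKM in the 22 °C libraries, 77.44, 75.39 and 154.44 in the 27 °C libraries and 0, 38.93 and 18.58 in the 32 °C libraries. In that isoform replicate 1 at 32 °C was listed at 0 while replicate 2 came nearer to the cooler libraries than to replicate 1 on the log2 scale.

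**Figure D3:**
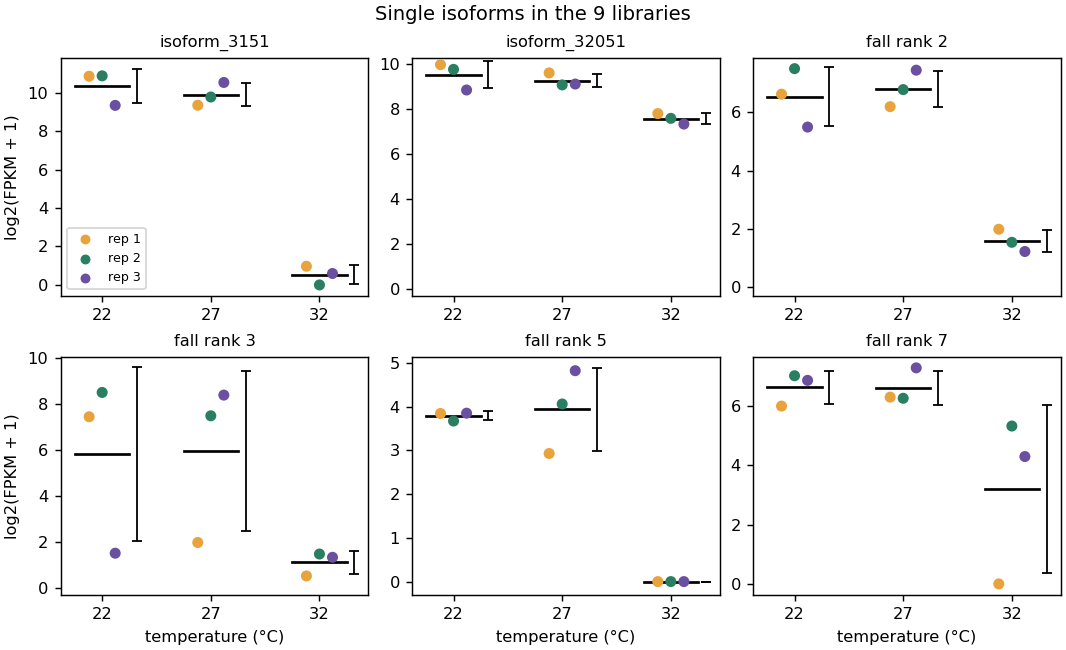
Values of 6 isoforms in the 9 libraries as log2(FPKM + 1) by temperature, coloured by replicate number, with the mean as a line and the SD of 3 libraries as a bar; ranks are by the size of the drop between 32 and 27 °C. In isoform_3151 and the isoform of rank 2 all 32 °C libraries are far below the rest, while ranks 3 and 7 show spreads within a temperature as wide as the drop.

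Complete loss from the table was uncommon. At 32 °C, 11 of the 112 isoforms were listed at 0 in all 3 libraries, 16 in 2, 37 in 1 and 48 in none. No isoform of the set was listed at 0 in any cooler library (0 of 112). The rule fixed that count, since each cooler value had to exceed every 32 °C value. Over all isoforms that passed the filter, 0.973% were listed at 0 in every 32 °C library and 16.1% in at least 1. A listed 0 may reflect an estimate that failed rather than a missing transcript. The 11 averaged between 2.18 and 14.7 FPKM over the cooler libraries, with a median of 6.05 FPKM, so none was among the 13 isoforms at 50 FPKM or more. Among the other 101, the lowest cooler value was a median of 1.63 times the highest at 32 °C. That gap was under 1.5-fold in 46, at least 2-fold in 35 and at least 4-fold in 13.

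Within a temperature, the median spread of this set was above that of all isoforms that passed the filter. On the log2(FPKM + 1) scale, their median SD was 0.49 between the 22 °C libraries, 0.44 between the 27 °C libraries and 0.66 between the 32 °C libraries, against 0.34, 0.36 and 0.39 for all isoforms that passed. The set was also more abundant, and the part this plays was not tested. The highest cooler library exceeded the lowest by a median of 2.70-fold. In 25 isoforms this ratio was under 2-fold, in 26 it was at least 4-fold and in 12 at least 10-fold. The steadiest stood at 7.85, 6.12 and 9.22 FPKM in the 22 °C libraries and 6.49, 6.54 and 6.17 in the 27 °C libraries, but its 32 °C values of 1.83, 0 and 5.28 FPKM were spread, and the highest came near the cooler ones.

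The low values that the third isoform showed in replicate 3 at 22 °C and replicate 1 at 27 °C recurred in a few others. In 6 of the 112 these 2 libraries were the lowest pair of the 6 cooler ones, among them the isoforms of ranks 1, 2, 3 and 12. The isoform of rank 12 had 125.29, 56.12 and 15.63 FPKM in the 22 °C libraries, 11.74, 100.01 and 119.35 in the 27 °C libraries and 4.75, 9.43 and 2.45 in the 32 °C libraries. The pair was picked out after the values were seen. Its share in the set, 5.36%, was near the 5.34% found among the 54552 isoforms above 0 in all cooler libraries with a difference of less than 0.5 between 27 and 22 °C.

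Few of the 112 passed a test across all isoforms. Between 32 and 27 °C, 5 were lower at a Benjamini-Hochberg adjusted p below 0.05 in limma, where 0.0475% of all isoforms tested were called lower. Between 32 and 22 °C, 33 were lower, against 0.789% of all isoforms tested, and the 5 were among these 33. Both contrasts entered the choice, so nothing is read from these shares. At an unadjusted p below 0.05, 107 of the 112 were lower against 27 °C and 106 against 22 °C, where 4.15% and 6% of all isoforms tested were. In 79 isoforms neither comparison passed. The comparisons share the 32 °C libraries.

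The 5 isoforms called against 27 °C differed by -9.36 to -2.29 on the log2(FPKM + 1) scale. Their median was -3.94, with a median standard error of 0.419. The other 107 had a median of -1.92 with a median standard error of 0.501. Isoform_3151 and the isoforms of ranks 2, 5, 9 and 38 made up the 5, of which 2 were listed at 0 throughout 32 °C, so that their fitted differences depend on the added 1. The isoform of rank 9 had 8.62, 10.16 and 7.98 FPKM in the 22 °C libraries and 15.13, 5.59 and 6.36 in the 27 °C libraries, and was listed at 0 in every 32 °C library. The isoform of rank 38 had 6.49, 3.64 and 3.6 FPKM in the 22 °C libraries, 5.29, 5.51 and 5.86 in the 27 °C libraries and 0.44, 0.68 and 0 in the 32 °C libraries. It ranked 84 by abundance, and its cooler libraries differed by less than 2-fold. The 33 isoforms called against 22 °C had a median of 8.79 FPKM over the cooler libraries, and the other 79 a median of 9.38 FPKM.

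The settings of the fit and single libraries moved these counts. With no filter, 15 isoforms were called against 22 °C. With only the compared groups in the fit, 11 were called against 22 °C and 3 against 27 °C. Against 27 °C, 3 isoforms were called when replicate 2 at 27 °C was left out and 2 when replicate 3 was. Leaving out replicate 1 at 32 °C gave 9, and leaving out replicate 3 there gave 2. Against 22 °C, 5, 7 and 12 isoforms were called when replicate 1, 2 or 3 at 22 °C was left out. The count was 21 without replicate 3 at 27 °C, and 12 when either replicate 2 or replicate 3 at 32 °C was left out. Calls over all isoforms tested moved too. Against 22 °C, 798 were called lower in the main fit, and 115, 107 and 262 without replicate 1, 2 or 3 at 22 °C. They were 418 with no filter and 316 with only the compared groups. Against 27 °C, 48 were called lower in the main fit and 30 with only the compared groups. They were 68 without replicate 1 at 32 °C and 27 without replicate 3 there.

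The difference between the steps, 32 minus 27 °C less 27 minus 22 °C, was also computed. The limits of the rule on both steps make it negative in all 112, so its calls draw on the values used in the choice and nothing is read from them. In limma, isoform_3151 alone was called among the 112, at -8.88 with a standard error of 0.863 and a Benjamini-Hochberg adjusted p of 0.0129, and 0.0593% of all isoforms tested were called below 0. No isoform of the set was called (0 of 112) when replicate 2 or replicate 3 at 27 °C was left out, and 2 were without replicate 2 at 32 °C. Over all isoforms tested, 6, 4 and 63 were called below 0 in these fits, and 60 in the main fit. At an unadjusted p below 0.05, 57 of the 112 were called, and 5.95% of all isoforms tested. None of the 112 was called between 27 and 22 °C in limma (0 of 112, also at an unadjusted p below 0.05), where 0.587% of all isoforms tested were, and the rule had fixed that outcome nearly in full. The lack of a call does not show equal levels. The 95% interval of the difference between 27 and 22 °C reached a median of 1.15 to either side on the log2 scale, and lay within ±1 in 16 of the 112. For isoform_3151 it ran from -1.62 to 0.68, and for isoform_32051 from -0.98 to 0.45.

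Each library was also left out in turn, the choice was made again by the same rule from the other 8, and the left-out library was read afterwards. It was read against libraries that did take part in the choice, which picked isoforms high in the remaining 22 and 27 °C libraries and low in the remaining 32 °C ones. These shares and differences therefore still draw in part on the choice. The shares over all isoforms are given as background, and are not what isoforms so chosen would show with no change. Without replicate 1, 2 or 3 at 32 °C, 273, 229 and 293 isoforms met the rule, of which the 200 with the lowest difference were kept each time. The left-out library lay below all 6 cooler libraries in 94, 93 and 74 of these 200. These are 47, 46.5 and 37%, against 14.4, 12.2 and 11.5% of all isoforms that passed the filter. The drop was much smaller there. The left-out library differed from the 27 °C mean by a median of -0.65, -0.76 and -0.40 on the log2(FPKM + 1) scale, while the 2 libraries used for the choice gave a median of -2.13, -2.05 and -2.26. In 146, 140 and 139 of the 200 (73, 70 and 69.5%) the left-out library was below the 27 °C mean at all. The share of all isoforms below that mean was not computed. Over all isoforms that passed the filter, the median of the same difference was -0.06, 0.03 and -0.0003.

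**Figure D4:**
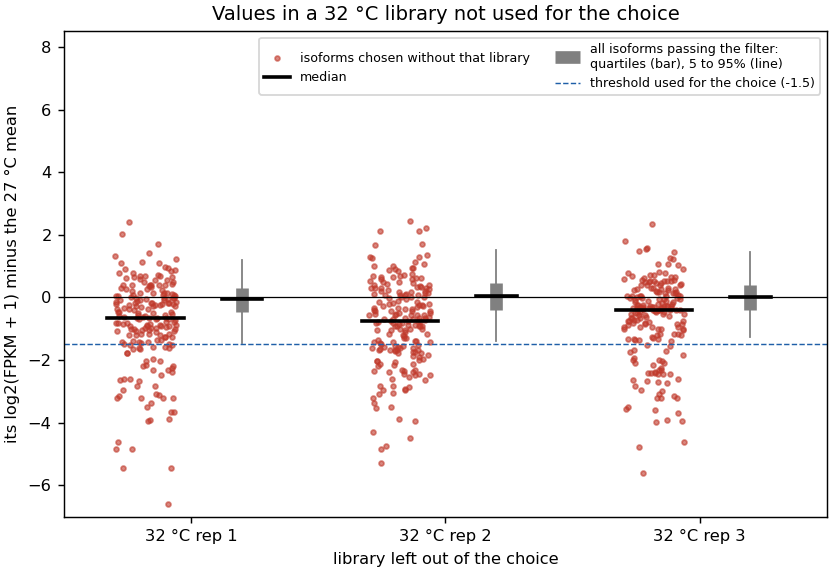
For each 32 °C library in turn, log2(FPKM + 1) in that library minus the 27 °C mean, for the 200 isoforms chosen without it (red points, black line at the median) and for all isoforms that passed the filter (grey, quartiles and 5 to 95%). The medians of the chosen isoforms lie between -0.76 and -0.40, above the dashed line at -1.5 that the libraries used in the choice had to reach. The axis does not extend to the lowest chosen value of each library, which was -8.91, -9.88 and -9.28 for replicates 1, 2 and 3.

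The share was lowest in the least abundant isoforms. Summed over the 3 choices, the left-out library was below all cooler ones in 48 of 142 isoforms (33.8%) that averaged under 5 FPKM over the cooler libraries. It was in 87 of 187 (46.5%) at 5 to 10 FPKM and in 126 of 271 (46.5%) at 10 FPKM or more. Between the last 2 bands the single libraries went different ways, with 49.2 and 50.5% for replicate 1, 58.9 and 46.4% for replicate 2, and 34.3 and 42.2% for replicate 3. The share over all isoforms of the same bands was 10.2 to 13.0%, 13.3 to 17.1% and 16.2 to 19.1%. An isoform can be counted in more than 1 of the 3 choices.

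The cooler libraries were left out in the same way. Without replicate 1, 2 or 3 at 22 °C, 137, 142 and 140 isoforms met the rule, and the left-out library was above all 3 libraries at 32 °C in 72.3, 75.4 and 72.9% of them. Without replicate 1, 2 or 3 at 27 °C, 166, 164 and 153 met it, with 69.3, 70.7 and 73.9%. Among all isoforms that passed the filter these shares ran from 19.2 to 25.3%. Lying above 3 libraries is a weaker condition than lying below 6, so these shares are not comparable with those of the 32 °C libraries.

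Many isoforms came close without entering the set. The limits on the means were met by 391 isoforms, and 279 of these were left out because a 32 °C library reached a cooler one. In 143 of the 279 a single 32 °C library did so, replicate 1 in 43, replicate 2 in 45 and replicate 3 in 55, so none of the 3 accounted for most of them. In 107 all 3 did, which requires a cooler library at or below every 32 °C value. Separate groups with the required drop were found in 239 isoforms, of which 70 were left out for a lower mean at 27 than at 22 °C and 57 for a higher one.

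The limits cut through a continuous range of values. Just inside the limit on the drop was an isoform with 2.15, 2.3 and 3.05 FPKM in the 22 °C libraries, 6.8, 3.65 and 2.2 in the 27 °C libraries and 0.27, 0.52 and 1.64 in the 32 °C libraries. Just outside was one with 17.18, 26.12 and 22.48 FPKM in the 22 °C libraries, 20.13, 17.25 and 31.55 in the 27 °C libraries and 6.94, 5.88 and 9.19 in the 32 °C libraries. Of the pair, the isoform left out had the wider gap between its 32 °C libraries and the cooler ones. On the limit between 27 and 22 °C, the last isoform inside differed by -0.4997 and the first outside by 0.507. The narrowest gap inside was 0.56 FPKM in the highest 32 °C library under 0.57 FPKM in the lowest cooler one.

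Which isoforms made up the set depended on the processing. The rule was met by 117 isoforms after division by median-of-ratios factors, 84 of them in the set, and by 58 after rescaling to TPM, 54 of them in the set. With 0.1 in place of 1 added before the logarithm, 278 met it and included 94 of the set. Leaving out single libraries left 69 to 95 of the 112 within the rule. In all of these settings and with no filter, 13 isoforms remained. These 13 had a median of 13.0 FPKM over the cooler libraries and a median difference between 32 and 27 °C of -2.41. Neither isoform given by identifier was among them, though the drop of both remained. For isoform_3151 it was -11.19 with 0.1 added, -8.61 after rescaling to TPM, and -9.63 to -9.03 with single libraries left out. Its difference between 27 and 22 °C, -0.47, lay near the limit of 0.5. For isoform_32051 the drop was -1.69, -1.61 and -1.80 to -1.52 in the same settings.

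One of the 13 stood at 12.95, 16.53 and 13.84 FPKM in the 22 °C libraries, 10.91, 12.66 and 11.4 in the 27 °C libraries and 0, 2.51 and 2.2 in the 32 °C libraries. Another had 26.69, 32.06 and 35.51 FPKM in the 22 °C libraries, 22.13, 29.74 and 24.17 in the 27 °C libraries and 9.06, 6.85 and 4.78 in the 32 °C libraries. In both, the cooler libraries lay within 2-fold of each other and all 32 °C libraries lay more than 2-fold below the lowest of them. Others of the 13 were less clearly apart. In the isoforms of ranks 7 and 21, also among the 13, the lowest cooler library was 1.61-fold and 1.22-fold above the highest at 32 °C.

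Set beside the other ways in which an isoform could stand apart at a single temperature, being lower only at 32 °C was the least frequent. With the same limits, 112 isoforms were lower and 214 higher only at 32 °C, 143 lower and 162 higher only at 27 °C, and 388 lower and 443 higher only at 22 °C. It was also the least frequent of the 6 after median-of-ratios scaling, with 117, after rescaling to TPM, with 58, and with any single 22 or 27 °C library left out, with 137 to 166. It was the second fewest with a pseudocount of 0.1, with 278, and without replicate 1 at 32 °C, with 273. Without replicate 2 or 3 at 32 °C it was the third fewest, with 229 and 293. Leaving out a library makes the patterns of its own temperature easier to meet. Isoforms lower only at 27 °C rose from 143 to 261, 347 and 322 without replicate 1, 2 or 3 at 27 °C. The ranks with a library left out are therefore not on equal terms. No test of the differences between patterns was made.

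**Figure D5:**
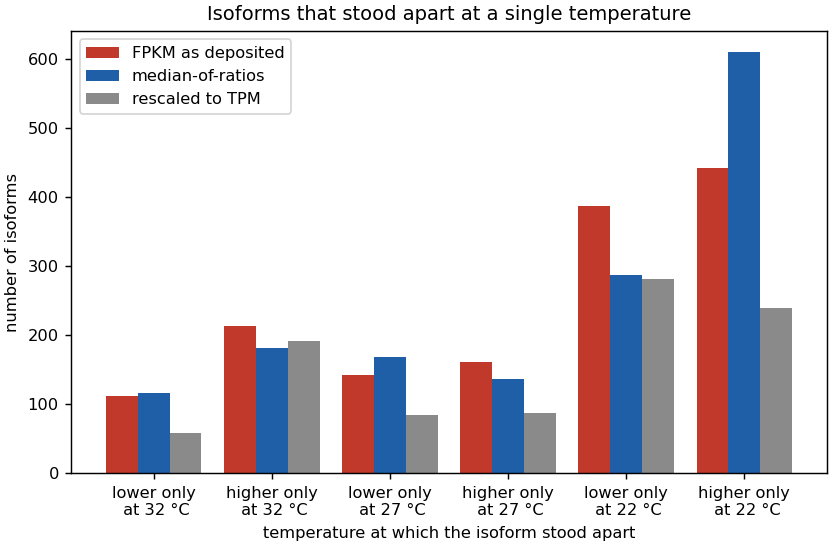
Number of isoforms that stood apart at a single temperature by the same limits, as deposited and after 2 rescalings between libraries. Isoforms lower only at 32 °C number 112, 117 and 58, fewer than in each of the other 5 patterns under the same scaling.

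The same reading of left-out libraries was made for the other patterns. Each choice kept 200 isoforms, out of 229 to 293 that met the limits for lower only at 32 °C. For the 22 °C patterns, 491 to 749 met them, so the cut was stricter there and the shares are not on equal terms. Over the 3 libraries of the temperature that stood apart, the left-out library kept the pattern in 43.5% of isoforms chosen as lower only at 32 °C and in 43% of those higher only at 32 °C. It did so in 49% and 39.5% of those lower and higher only at 27 °C, and in 70.2% and 59.2% of those lower and higher only at 22 °C. Single libraries ran from 37 to 47% for isoforms lower only at 32 °C. They ran from 65 to 73% for those lower only at 22 °C and from 57 to 63.5% for those higher only at 22 °C. The share among all isoforms that passed the filter differed too. At 32 °C it was 11.5 to 14.4% for lower and 14.9 to 21.1% for higher values. At 27 °C it was 10.6 to 11.8% for lower and 13.1 to 16.3% for higher values. At 22 °C it was 17.5 to 23.1% for lower and 11.7 to 14.1% for higher values.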

How the data were processed

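RNA of the eyestalk was sequenced by DNBSEQ, according to the labels' protocols. The table deposited by the authors holds FPKM, as its column names say, with a column for each library. Per the submitters' processing notes, Bowtie2 and RSEM were used. Neither a version nor a setting is stated, and the sources used here name neither the transcript set nor the genome build. RSEM may divide reads among isoforms that resemble each other. Columns were assigned to libraries by title, and 0 were unused. Read depth is unknown, so no counting interval was computed.

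The filter was 1 FPKM in 3 or more libraries. limma 3.58.1 (R 4.3.3) was run two-sided on log2(FPKM + 1) with all 9 libraries in one fit, the variance trended on abundance and Benjamini-Hochberg adjustment over all 101114 isoforms. Differences on this scale understate those of low isoforms. The fit was tested on simulated data. The isoforms, lists and tests were chosen with earlier results of these data known. Gene names were to decide which isoforms are named. As 0 matched, the one with the lowest difference and the next in abundance are given by identifier, and others by rank. Alternatives covered pseudocount, filter, scaling, libraries in the fit, a replicate block and leaving out each library.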

Additional observations from a re-analysis of the deposited data

Results flagged for a closer look

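The change of isoform_3151 over the upper step, 27 to 32 °C, differed from its change over the lower step, 22 to 27 °C, by -8.88 on the log2(FPKM + 1) scale, in limma's test of that difference with a Benjamini-Hochberg adjusted p of 0.0129. The rule chose the isoform from these same values, for a small lower step and a large drop over the upper one, so the sign was fixed by the choice and the p supports nothing further. No isoform of the set was called for this difference (0 of 112) without replicate 2 or 3 at 27 °C. Over all isoforms tested, 6 and 4 were called below 0 in these fits, and 60 in the main fit.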

How the results depend on the processing

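With a pseudocount of 0.1, 278 isoforms met the rule, the median difference of the 112 between 32 and 27 °C was -3.29, and 9 were called against 27 °C and 2 for the difference between steps. Rescaling to TPM gave 58 isoforms and a median of -1.58; TPM values are lower than FPKM here, so the added 1 weighs more. A minimum of 5 FPKM gave a median of -2.20 over the 87 isoforms left. With no filter, 15 were called against 22 °C. With only the compared groups fitted, 3 were called against 27 °C and 11 against 22 °C. Leaving out single libraries gave 137 to 293 isoforms, a median of -2.07 to -1.90, and 2 to 9 called against 27 °C, 5 to 26 against 22 °C and 0 to 2 for the difference between steps. Over all isoforms tested, leaving out single libraries gave 9 to 68 called lower against 27 °C and 107 to 601 against 22 °C. The main fit gave 48 and 798. With no filter 418 were called lower against 22 °C. With only the compared groups fitted, these counts were 30 against 27 °C and 316 against 22 °C. None of the set was called between 27 and 22 °C (0 of 112) in any setting of the limma fit. Median-of-ratios scaling moved the median of all isoforms, 32 against 22 °C, from 0.10 to -0.01. The causes were not tested.

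Replicate numbers were not treated as pairs, since deviations of same-numbered libraries correlated at -0.0190 to 0.0525 and 3 of 9 libraries correlated best with their own number. With the replicate block, 1 was called against 27 °C, 13 against 22 °C and 0 for the difference between steps. Over all isoforms tested, the block gave 7 called lower against 27 °C, 206 against 22 °C and 15 below 0 for the difference.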
